A study of Mus musculus with 18 samples.

Results

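The heat shock proteins and J-domain cochaperones, the cell's main set of protein-folding helpers, were examined across nuclear and total RNA of mice with 3 Nup93 genotypes. Genes were taken by symbol: every symbol of the Hsp and Dnaj series, plus Cryab, Hsf1, Hsf2, Bag3, Stip1, Ahsa1 and Chordc1. This rule matched 82 of the 24602 genes in the count table. One match, Hspg2, encodes perlecan, a basement membrane proteoglycan and not a heat shock protein, and it was counted but described only once. Nup93 is a structural protein of the nuclear pore, and the study used a knock-in line (strain 129S1/SvlmJ) that carries the R388W allele. Libraries were made from nuclear RNA and from total RNA of homozygous R388W/R388W mice (Hom), heterozygous R388W/+ mice (Het) and wild-type mice (WT), 3 libraries in each of the 6 groups. Ages are not given in the sources used here, and no label states whether different animals gave the 3 libraries within a group, so p-values measure only the spread between libraries. According to the series text the cells were podocytes, which form the outer layer of the glomerular filter, while the sample labels name only mouse tissue.

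Chaperones of the HSP70 family bind short hydrophobic stretches of unfolded proteins in a cycle driven by ATP. J-domain proteins (the DNAJA, DNAJB and DNAJC classes) hand clients to HSP70 and start its ATP hydrolysis, and HSP110 proteins and BAG proteins release the nucleotide. HSP90 finishes the folding of kinases and steroid receptors with the help of cochaperones, HSPD1 and HSPE1 form the folding chamber of mitochondria, and small heat shock proteins hold unfolded clients without ATP. The transcription factor HSF1 switches on many of these genes under heat or proteotoxic stress, through inverted repeats of the letters GAA in their promoters. Tubule and glomerular cells of the kidney are known to express inducible HSP70 and the small heat shock proteins under osmotic and ischaemic stress.

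Depth was 17405493 to 23462056 counts per library, and 17248 to 18021 genes were detected in each. The 82 genes took 0.801% to 1.19% of all counts. The deposited column of Total WT replicate 1 held the sum of the 9 nuclear columns besides its own counts, and that sum was subtracted before use. Total Hom replicate 2 stood apart: 7.12% of its counts fell on the ribosomal precursor Rn45s. Scaled by library totals alone, the median squared difference of its genes from the other Total Hom libraries was 4.32 and 4.28 times that of sampling noise. The Rn45s share by itself shifts the other genes on that scale. Markers of proximal tubule were far above those of podocytes in every group: 15 proximal tubule markers summed to means of 37192 to 67388 CPM (counts after scaling for depth and composition by TMM), and 10 podocyte markers to means of 403 to 621 CPM, in sums that were not corrected for gene length. None of these markers was at 0. The sum of 12 immune markers was 514 to 531 CPM in Nuclear Hom, 1514 to 1589 CPM in Nuclear Het and 548 to 566 CPM in Nuclear WT libraries, and its part in the nuclear Het results was not tested. Xist stood at 334 to 545 CPM in Nuclear Hom, Nuclear Het and Total WT libraries and at 0.341 to 1.67 CPM in Nuclear WT, Total Hom and Total Het libraries. The summed Y-linked genes ran in reverse, at 0.453 to 2.94 CPM in Nuclear Hom, Nuclear Het and Total WT libraries and 151 to 164 CPM in Nuclear WT, Total Hom and Total Het libraries. The groups thus differ as female and male animals do, and whether the sexes differed by design or labels were exchanged cannot be told from the files, which bears on every value given under a group's label. Every comparison of a mutant genotype with WT, and every comparison of nuclear with total RNA, crosses that split. For mutant against WT the split runs in opposite directions in nuclear and total RNA. Genotype or fraction and the split therefore cannot be told apart in them, and Hom against Het within a fraction is the comparison that does not cross it.

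Most of the genes were measurable. After the filter on low counts 76 were tested in nuclear RNA, 75 in total RNA and 77 in the fit of all libraries, and 71 had a mean of at least 5 CPM. The others were low throughout: Hspb2 averaged 4.75 CPM, Hspa1l 2.47 CPM, Hspb7 1.59 CPM, Dnajb3 1.40 CPM, Dnajb13 0.457 CPM and Hspb9 0.398 CPM. Over all libraries Dnajb7 had 71 counts, Dnajc5b 38 and Hspb3 2, and no count fell on Dnajb8 or Dnajc5g. Per kilobase of the deposited gene length, Hsp90ab1 (constitutive cytosolic HSP90) stood highest at a mean of 528 CPM per kilobase, followed by Hspa8 (constitutive cytosolic HSP70) at 395, Cryab (alpha-B crystallin) at 316, Hspa9 (mitochondrial HSP70) at 310 and Hspd1 at 232 CPM per kilobase. Among the genes at 5 CPM or more, group means differed most for Hspa1a (inducible HSP70), whose highest group was 3.70 times its lowest, then Dnaja1 (2.97 times) and Dnajc22 (2.90 times). They differed least for Dnajc14 (1.10 times) and Dnaja2 (1.13 times).

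**Figure D1:**
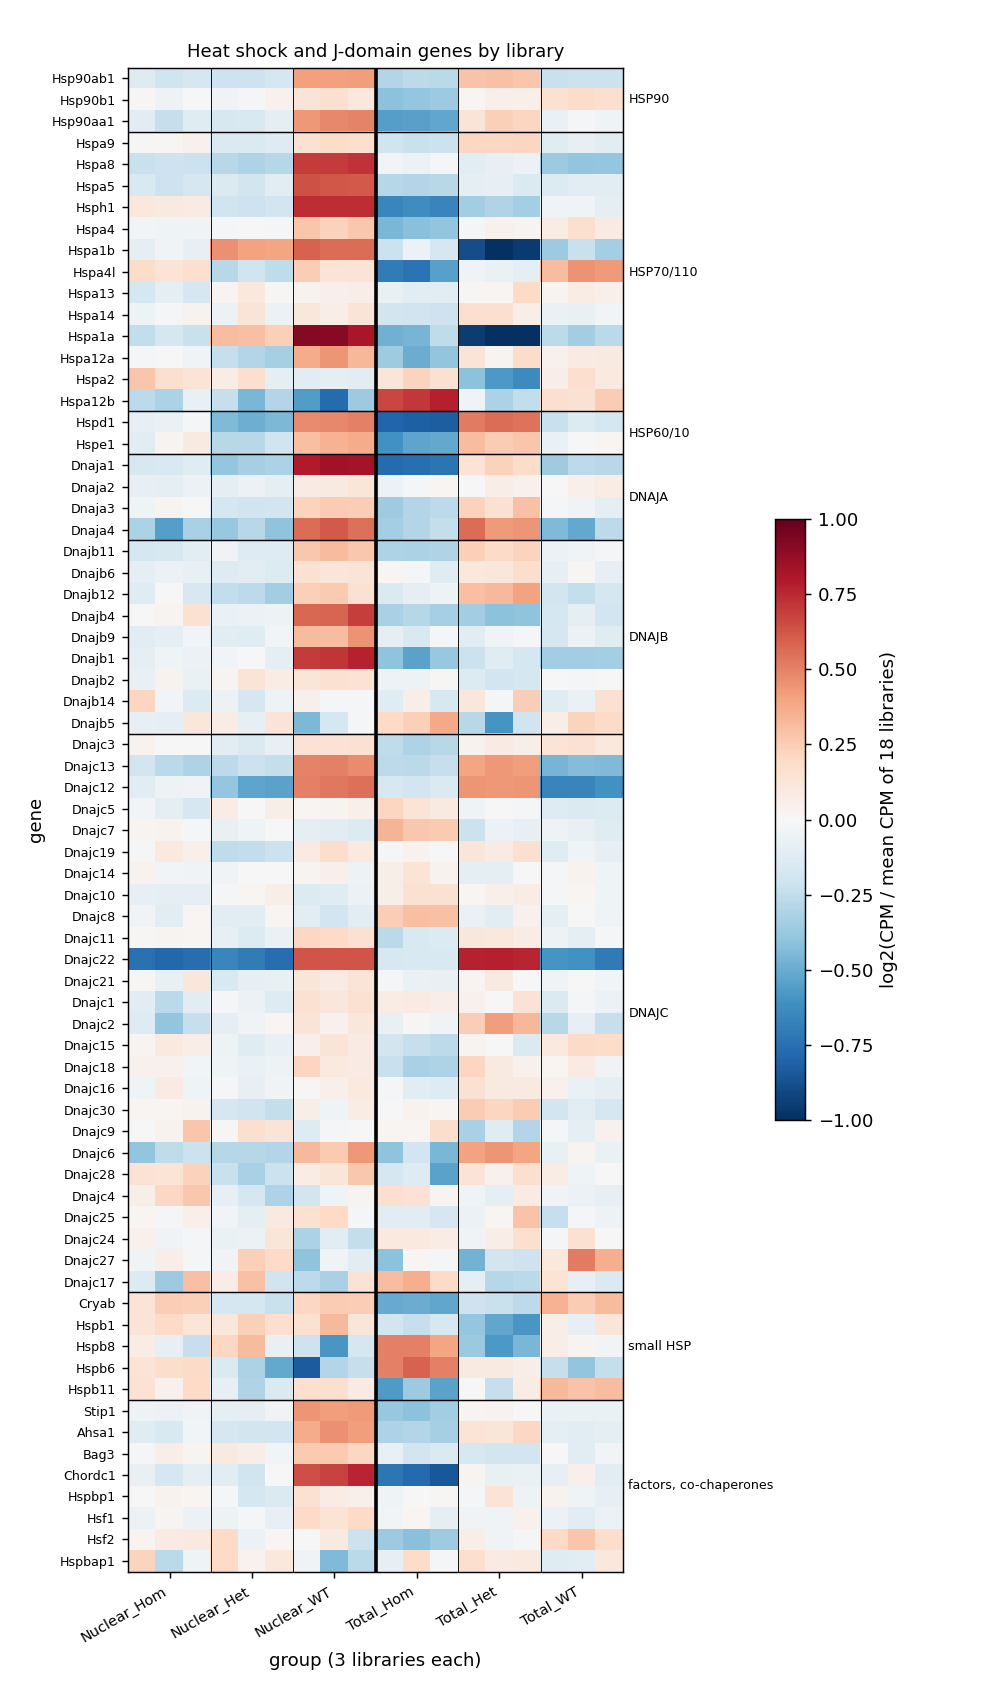
Each row is one of 70 genes of the rule with a mean of at least 5 CPM (Hspg2 left out), ordered by role, and each column one of the 18 libraries by group. The colour is the log2 of the library's CPM over the gene's mean of all 18 libraries, clipped at 1 in either direction, and the Nuclear WT columns hold the highest group mean for 36 of the 71 genes when Hspg2 is counted.

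The Nuclear WT group stood out for these genes. It held the highest group mean for 36 of the 71 genes at 5 CPM or more (50.7%), against 21.0% of all 11526 genes at that level. All 3 Nuclear WT libraries lay above all 15 other libraries for 23 of the 71 genes (32.4%, against 8.82% of all genes). Those 23 include Hspa8, Hspa1a, Hspa1b, Hsph1, Hspa5, Hsp90aa1, Hsp90ab1, Dnaja1, Dnajb1, Stip1, Ahsa1, Chordc1, Bag3 and Hsf1. Total Hom held the lowest mean for 30 of the 71 (42.3%, against 28.7%). Summed over the genes without Hspg2, the level was 9211 ± 75.5 CPM in Nuclear Hom, 8657 ± 59.8 CPM in Nuclear Het and 12499.7 ± 61.4 CPM in Nuclear WT libraries (SD, n = 3 each). In total RNA the sum was 8047 ± 31.1 CPM in Hom, 10478 ± 67.1 CPM in Het and 9034 ± 68.1 CPM in WT libraries (SD, n = 3 each). Without TMM, and with Hspg2, Total Het and Total WT lay closer: the genes took 0.969% to 0.981% and 0.953% to 0.967% of counts. Total Hom took 0.801% to 0.868%. On that scale Nuclear Het (0.922% to 0.948%) and Nuclear Hom (0.942% to 0.959%) overlapped, and Nuclear WT took 1.18% to 1.19%. In bulk RNA, fewer cells of a type and less RNA per cell cannot be told apart.

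In nuclear RNA of Hom against WT, 9 of 76 genes were called higher and 41 lower by edgeR's quasi-likelihood test at an adjusted p under 0.05. Of all 15112 genes tested, 26.5% were called higher and 27.8% lower (54.3% in either direction). The median log2 fold change was -0.14 over the 76 genes and 0.02 over all genes. Scaled by library totals alone, which moves the median of all genes by 0.12, the split was 21 higher and 30 lower. Nuclear RNA of Het against WT gave 10 higher and 46 lower, beside 32.8% and 31.7% of all genes (64.6% together), with medians of -0.20 and 0.02. With library totals (a shift of 0.18) it was 24 higher and 32 lower. Nuclear Hom against Het differed less, with 25 higher and 9 lower (21.4% and 21.8% of all genes, 43.2% together), or 17 higher and 18 lower with library totals, so that its direction as a group depends on the scaling.

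In total RNA of Hom against WT, 20 of 75 genes were higher and 32 lower, beside 30.6% and 31.0% of all 15051 genes (61.6% together). Without Total Hom replicate 2 the counts were 16 and 32. Total Het against WT split evenly, 28 higher and 26 lower (30.9% and 30.3% of all genes, 61.1% together), and 15 higher and 36 lower with library totals (a shift of -0.18). Total Hom against Het gave 22 higher and 40 lower (32.9% and 34.1%, 67.0% together), and 29 higher and 30 lower with library totals (a shift of 0.15). Without Total Hom replicate 2 that comparison gave 20 higher and 41 lower.

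The main cytosolic HSP70 genes were lower in mutant than in WT nuclear RNA. Hspa8, the constitutive HSP70 that also uncoats clathrin vesicles, had 713, 719 and 715 CPM in Nuclear Hom, 687, 670 and 680 CPM in Nuclear Het, and 1347, 1349 and 1374 CPM in Nuclear WT libraries. Its total RNA ran the other way, at 814, 798 and 819 CPM in Total Hom, 771, 784 and 798 CPM in Total Het, and 646, 632 and 636 CPM in Total WT libraries. The mutant and WT libraries did not overlap in either fraction. Hspa8 fell in nuclear RNA by 1.0 ± 0.02 on the log2 scale in Het (SE, adjusted p = 1.15e-60) and rose in total RNA by 0.35 ± 0.02 in Hom (adjusted p = 1.06e-40) and 0.30 ± 0.02 in Het (adjusted p = 3.74e-34). With the deposited column of Total WT replicate 1 both total RNA rises missed the threshold, at 0.19 in Hom and 0.13 in Het (adjusted p = 0.253 and 0.433).

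Hspa1a and Hspa1b encode the stress-inducible HSP70 in neighbouring, nearly identical genes. Reads that fit both can be split or dropped by the counting, so each value is uncertain and their sum is given as well. Both RefSeq windows hold the same stretch around 1 HSF1-type repeat, shown because it is the element class through which these genes are known to be induced. The capitals mark GAANNTTC on the strand of the gene, in the GRCm38.p6 build, at chr17:34972223-34972290 (minus strand) for Hspa1a and chr17:34959305-34959372 (minus strand) for Hspa1b.
Hspa1a: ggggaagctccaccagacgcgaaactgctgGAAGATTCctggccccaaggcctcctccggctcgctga
Hspa1b: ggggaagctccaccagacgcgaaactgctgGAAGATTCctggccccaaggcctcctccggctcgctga
Hspa1a had 29.3, 30.8 and 29.7 CPM in Nuclear Hom, 43.0, 42.8 and 41.0 CPM in Nuclear Het, and 65.5, 65.4 and 61.2 CPM in Nuclear WT libraries. In total RNA it had 24.9, 25.2 and 29.1 CPM in Hom, 18, 17 and 16.9 CPM in Het, and 29.0, 27.3 and 28.8 CPM in WT libraries. The nuclear groups were ordered Hom below Het below WT with no overlap, while in total RNA Het was the low group and Hom and WT overlapped. Hspa1a fell by 1.10 ± 0.05 in nuclear Hom (adjusted p = 7.07e-37) and by 0.60 ± 0.05 in nuclear Het (adjusted p = 2.11e-21) against WT. In total RNA it fell by 0.71 ± 0.07 in Het against WT (adjusted p = 2.15e-18), and Hom against WT was -0.10 ± 0.06 (adjusted p = 0.157). The sum of Hspa1a and Hspa1b was 114 ± 2.4 CPM in Nuclear Hom, 160 ± 3.6 CPM in Nuclear Het and 195 ± 3.7 CPM in Nuclear WT libraries (SD, n = 3 each). In total RNA the sum was 106 ± 4.7 CPM in Hom, 63.1 ± 2.5 CPM in Het and 99.7 ± 2.8 CPM in WT libraries (SD, n = 3 each). Hom and WT overlapped in that sum in total RNA, and the other pairs of groups within a fraction did not.

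Hsph1, the inducible HSP110 that exchanges the nucleotide of HSP70, was lowest in nuclear Het and in total Hom. Its RefSeq window at chr5:149636332-149636399 (minus strand) holds TTCNNGAA, in capitals.
Hsph1: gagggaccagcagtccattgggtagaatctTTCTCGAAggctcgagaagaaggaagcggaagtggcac
It had 241, 239 and 238 CPM in Nuclear Hom, 196, 195 and 197 CPM in Nuclear Het, and 374, 376 and 375 CPM in Nuclear WT libraries. Total RNA held 143, 146 and 142 CPM in Hom, 177, 183 and 178 CPM in Het, and 218, 218 and 210 CPM in WT libraries. No 2 groups of a fraction overlapped, and both mutant genotypes lay below WT in both fractions. Hsph1 fell by 0.94 ± 0.03 in nuclear Het (adjusted p = 2.89e-51) and by 0.58 ± 0.03 in total Hom (adjusted p = 7.45e-44) against WT. Hspa4, another HSP110, fell in both genotypes and both fractions, by 0.27 to 0.29 in nuclear RNA, 0.52 in total Hom and 0.09 in total Het. Hspa4l, the third HSP110, stood at -0.01 in nuclear Hom against WT (adjusted p = 0.836) and fell by 1.05 ± 0.05 in total Hom (adjusted p = 5.16e-47), where its libraries held 31.3, 30.5 and 34.9 CPM against 63.1, 69.6 and 68.4 CPM in Total WT. Over the 14 HSP70 and HSP110 genes tested, 2 were higher and 9 lower in nuclear Hom against WT (26.5% and 27.8% of all genes). In nuclear Het against WT 1 was higher and 9 lower (32.8% and 31.7% of all genes).

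**Figure D2:**
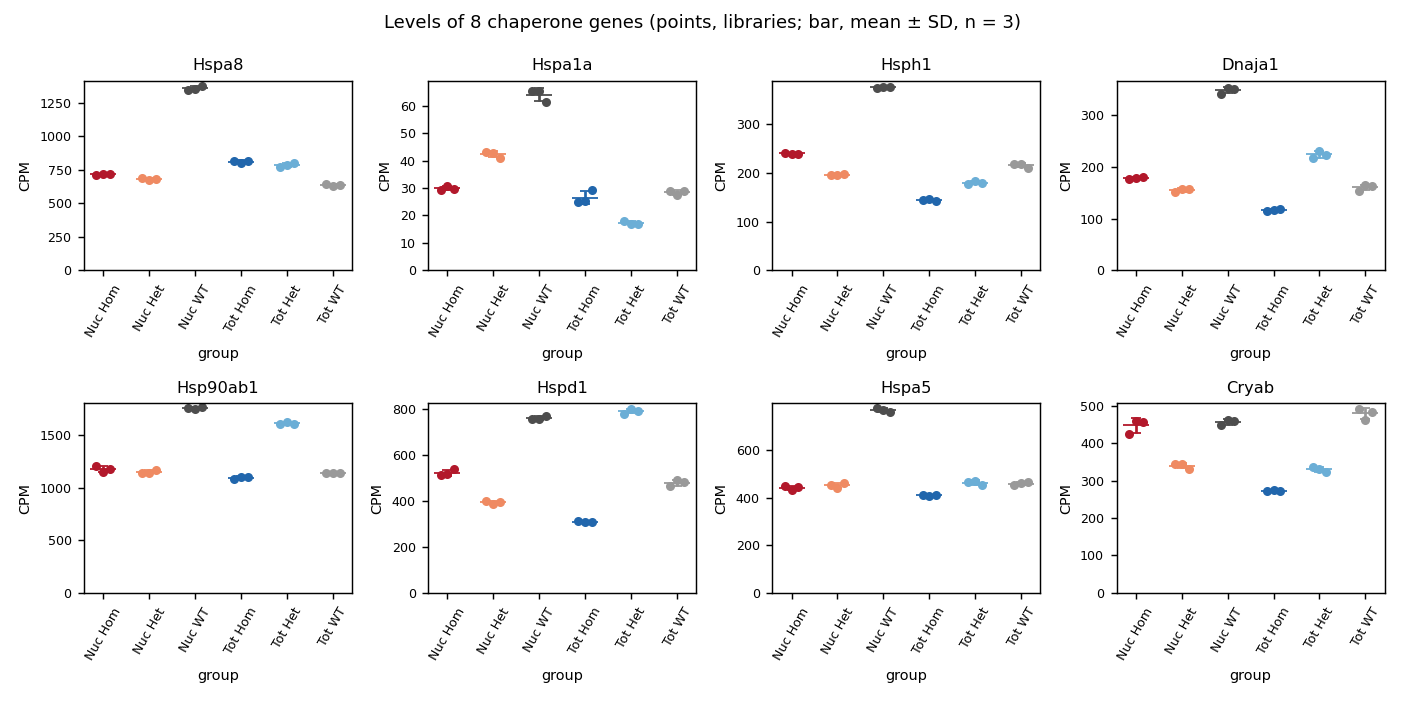
CPM of 8 genes (Hspa8, Hspa1a, Hsph1, Dnaja1, Hsp90ab1, Hspd1, Hspa5 and Cryab) in the 6 groups, with points for libraries and bars for the mean ± SD of 3. Nuclear WT is the highest group for Hspa8, Hspa1a, Hsph1, Dnaja1, Hsp90ab1 and Hspa5, Total Het is the highest for Hspd1, and Cryab is lowest in Total Hom at 271 to 274 CPM.

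Among the other HSP70 genes, Hspa2 (best known from the testis) rose by 0.30 ± 0.07 in nuclear Hom (adjusted p = 0.000324) and fell by 0.65 ± 0.08 in total Het (adjusted p = 8.36e-12) against WT. Hspa12b, a divergent HSP70 known from endothelium, had 16.8, 17.3 and 18.1 CPM in Total Hom, 10.3, 8.51 and 8.92 CPM in Total Het, and 11.8, 11.8 and 12.6 CPM in Total WT libraries. Its total RNA rose by 0.53 ± 0.08 in Hom (adjusted p = 8.57e-09) and fell by 0.38 ± 0.09 in Het (adjusted p = 0.000186). Endothelial markers moved with it: the sum of 10 markers was 1582 to 1586 CPM in Total Hom, 1055 to 1059 CPM in Total Het and 1387 to 1407 CPM in Total WT libraries, none at 0. Of these 10 markers, 6 were higher and 2 lower in total Hom against WT (30.6% and 31.0% of all genes). In total Het against WT 10 were lower (30.3% of all genes). Their part in the Hspa12b result was not tested.

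The cytosolic HSP90 genes were lower in nuclear and higher in total RNA of Het against WT, while Hsp90b1, the HSP90 of the ER, was lower in both. Hsp90ab1 had 1210, 1154 and 1181 CPM in Nuclear Hom, 1144, 1145 and 1171 CPM in Nuclear Het, and 1756, 1754 and 1769 CPM in Nuclear WT libraries. In total RNA it had 1081, 1105 and 1100 CPM in Hom, 1611, 1622 and 1607 CPM in Het, and 1136, 1142 and 1138 CPM in WT libraries. Het was thus far below WT in nuclear RNA and far above it in total RNA, with no overlap. Hsp90ab1 fell by 0.61 ± 0.02 in nuclear Het (adjusted p = 1.26e-45) and rose by 0.50 ± 0.01 in total Het (adjusted p = 3.37e-67), while total Hom against WT was -0.05 ± 0.01 (adjusted p = 0.0019). The inducible Hsp90aa1 had the same directions in Het, with -0.60 ± 0.03 in nuclear RNA (adjusted p = 1.68e-35) and 0.23 ± 0.02 in total RNA (adjusted p = 2.67e-18), but fell in total Hom by 0.49 ± 0.02 (adjusted p = 5.84e-45). All 3 HSP90 genes fell in nuclear RNA of both mutant genotypes and in total Hom against WT. With library totals alone the smallest of these falls did not hold: Hsp90b1 in nuclear Hom and Hsp90ab1 in total Hom were no longer called, and Hsp90b1 in nuclear Het stood at 0.05. The Hsp90aa1 rise in total Het was not called either, at 0.06 (adjusted p = 0.215).

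Of the HSP90 helpers within the rule, Stip1 (which bridges HSP70 and HSP90), Ahsa1 (which stimulates the HSP90 ATPase) and Chordc1 fell in nuclear RNA of both genotypes and in total Hom. Chordc1 had 40.0, 37.5 and 39.5 CPM in Nuclear Hom, 39.1, 36.8 and 42.2 CPM in Nuclear Het, and 66.0, 67.5 and 71.5 CPM in Nuclear WT libraries. Its total RNA was 25.6, 24.6 and 23.5 CPM in Hom, 42.9, 40.2 and 40.4 CPM in Het, and 39.9, 43.8 and 39.0 CPM in WT libraries. Both mutant nuclear groups and Total Hom lay clear of WT, and Total Het overlapped it. Chordc1 fell by 0.81 ± 0.05 in nuclear Hom (adjusted p = 1.16e-28), 0.79 ± 0.05 in nuclear Het (adjusted p = 3.64e-28) and 0.73 ± 0.05 in total Hom (adjusted p = 6.53e-26), and total Het against WT was 0.01 (adjusted p = 0.854). Ahsa1 fell by 0.51 ± 0.04 in nuclear Hom and 0.59 ± 0.04 in nuclear Het, and its total RNA fell by 0.20 ± 0.03 in Hom and rose by 0.26 ± 0.03 in Het, a rise that was 0.08 and not called with library totals (adjusted p = 0.101). Bag3, which releases the HSP70 nucleotide and directs clients to autophagy, fell by 0.22 ± 0.04 in nuclear Hom (adjusted p = 7.64e-07) and by 0.20 ± 0.04 in nuclear Het (adjusted p = 6.29e-06), but with library totals the Het value was -0.02 and not called (adjusted p = 0.681). Its total RNA differences against WT were small, -0.09 in Hom (adjusted p = 0.0419) and -0.13 in Het (adjusted p = 0.00277), and the Hom call was lost in 8 of the alternatives tried.

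The DNAJA class shared a direction in nuclear RNA: all 4 genes fell in Hom and in Het against WT (27.8% and 31.7% of all genes). With library totals 3 of 4 did so in each. The sizes differed, and Dnaja2 had 169, 167 and 172 CPM in Nuclear Hom against 189, 191 and 195 CPM in Nuclear WT libraries. Dnaja1, the main partner of cytosolic HSP70 in folding, carries GAANNTTC (capitals) in its RefSeq window at chr4:40722314-40722381 (plus strand).
Dnaja1: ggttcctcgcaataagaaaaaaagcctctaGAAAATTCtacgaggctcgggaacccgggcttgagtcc
It had 176, 178 and 181 CPM in Nuclear Hom, 150, 156 and 158 CPM in Nuclear Het, and 341, 352 and 351 CPM in Nuclear WT libraries. In total RNA the values were 115, 117 and 119 CPM in Hom, 217, 231 and 223 CPM in Het, and 154, 164 and 162 CPM in WT libraries. WT was the highest nuclear group and the middle total group, with Het above it and Hom below it, and no groups overlapped. Dnaja1 fell by 1.16 ± 0.03 in nuclear Het (adjusted p = 2.11e-56), fell by 0.45 ± 0.03 in total Hom (adjusted p = 5.41e-31) and rose by 0.48 ± 0.03 in total Het (adjusted p = 3.11e-35). Dnaja4 was also highest in WT in nuclear RNA and in Het in total RNA, with 16.4, 13.9 and 16.2 CPM in Nuclear Hom, 15.7, 16.8 and 15.4 CPM in Nuclear Het, and 30.1, 31.2 and 29.9 CPM in Nuclear WT libraries. Its mutant nuclear groups overlapped each other, as did Total Hom (16.1, 16.7 and 17.2 CPM) and Total WT (15, 14.3 and 17 CPM). Dnaja4 fell by 0.97 ± 0.07 in nuclear Hom (adjusted p = 1.41e-23) and rose by 0.88 ± 0.07 in total Het (adjusted p = 1.05e-22).

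In the DNAJB class 7 of 11 genes fell and none rose in nuclear Hom against WT (genome-wide shares 27.8% and 26.5%). Nuclear Het against WT had 2 rises and 6 falls (shares 32.8% and 31.7%). In total RNA 1 rose and 2 fell of 10 in Hom against WT (shares 30.6% and 31.0%). Total Het against WT had 4 rises and 4 falls (shares 30.9% and 30.3%). Dnajb1, the J-protein that starts disaggregation with HSP70, had 54.5, 56.5 and 56.1 CPM in Nuclear Hom, 57.2, 58.1 and 54.9 CPM in Nuclear Het, and 94.6, 95.9 and 99.2 CPM in Nuclear WT libraries. The mutant groups overlapped each other and lay well below WT, with falls of 0.79 ± 0.04 in Hom (adjusted p = 7.88e-34) and 0.76 ± 0.04 in Het (adjusted p = 8.59e-33). Total RNA of Dnajb1 differed little, at -0.09 in Hom (adjusted p = 0.0962) and 0.17 ± 0.05 in Het (adjusted p = 0.000551) against WT, and the Het value was 0.00 with library totals and -0.06 with the deposited column of Total WT replicate 1. Its close relative Dnajb4 fell in nuclear RNA by 0.55 ± 0.04 in Hom and by 0.67 ± 0.04 in Het.

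The DNAJC class, the most varied of the J-proteins, split in both directions. Of 26 genes tested, 5 were higher and 10 lower in nuclear Hom against WT, 4 and 14 in nuclear Het, 14 and 7 in total Hom, and 11 and 4 in total Het against WT. The shares of all genes, in the same order, were 26.5% and 27.8%, 32.8% and 31.7%, 30.6% and 31.0%, and 30.9% and 30.3%. With library totals the balance turned in nuclear Hom (10 higher, 6 lower), nuclear Het (9 higher, 8 lower) and total Het (6 higher, 9 lower). Dnajc22, whose Drosophila homologue Wurst acts in endocytosis, had 38.1, 37.2 and 37.7 CPM in Nuclear Hom, 40.8, 39.4 and 37.7 CPM in Nuclear Het, and 99.1, 98.8 and 98.7 CPM in Nuclear WT libraries. Its total RNA was 57.4, 57.7 and 57.7 CPM in Hom, 109, 110 and 109 CPM in Het, and 42.6, 42.1 and 39.2 CPM in WT libraries. The highest nuclear group was WT and the highest total group was Het, with no overlap in either case. Dnajc22 fell by 1.39 ± 0.04 in nuclear Hom (adjusted p = 2.29e-49) and rose by 1.41 ± 0.04 in total Het (adjusted p = 1.03e-72) against WT.

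Dnajc12, a cochaperone of phenylalanine hydroxylase in human cells, and Dnajc13, a J-protein of endosomes, were likewise highest in WT among the nuclear groups and in Het among the total groups. Dnajc12 had 141, 147 and 149 CPM in Nuclear Hom, 117, 106 and 105 CPM in Nuclear Het, and 216, 219 and 223 CPM in Nuclear WT libraries. Its total RNA held 136, 134 and 138 CPM in Hom, 207, 206 and 207 CPM in Het, and 96.3, 96.6 and 100 CPM in WT libraries. Dnajc12 fell by 1.01 ± 0.03 in nuclear Het (adjusted p = 2.65e-45) and rose by 1.08 ± 0.03 in total Het (adjusted p = 1.72e-71). Dnajc13 fell by 0.73 ± 0.03 in nuclear Het (adjusted p = 2.24e-40) and rose by 0.86 ± 0.03 in total Het (adjusted p = 2.25e-66), and Dnajc6 (auxilin, which recruits HSP70 to clathrin coats) fell by 0.63 ± 0.06 and rose by 0.45 ± 0.06. Proximal tubule markers moved with these genes in Het. Their sum was 40403 to 40992 CPM in Nuclear Hom, 37031 to 38017 CPM in Nuclear Het and 59038 to 60401 CPM in Nuclear WT libraries, and 36773 to 37534 CPM in Total Hom, 66863 to 67930 CPM in Total Het and 38636 to 39136 CPM in Total WT libraries. The sum weighs abundant genes most. Gpx3 alone averaged 17103 CPM in Total Het and 16248 CPM in Total WT, so most of the rise of the sum lay in other markers. The sum is therefore no measure of how the typical marker moved. Of the 15 markers 12 were lower and 1 higher in nuclear Het against WT (median log2 fold change -0.45), beside 31.7% and 32.8% of all genes. In total Het against WT 11 were higher and 4 lower (median 0.21), beside 30.9% and 30.3% of all genes. In total Hom against WT they did not: 7 markers were higher and 8 lower, and their sum was lower, while Dnajc22, Dnajc12 and Dnajc13 rose by 0.49, 0.48 and 0.20. With the deposited column of Total WT replicate 1 those values of Dnajc22 and Dnajc12 were 0.32 and 0.23 and not called. The markers' part in the J-protein results was not tested.

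**Figure D3:**
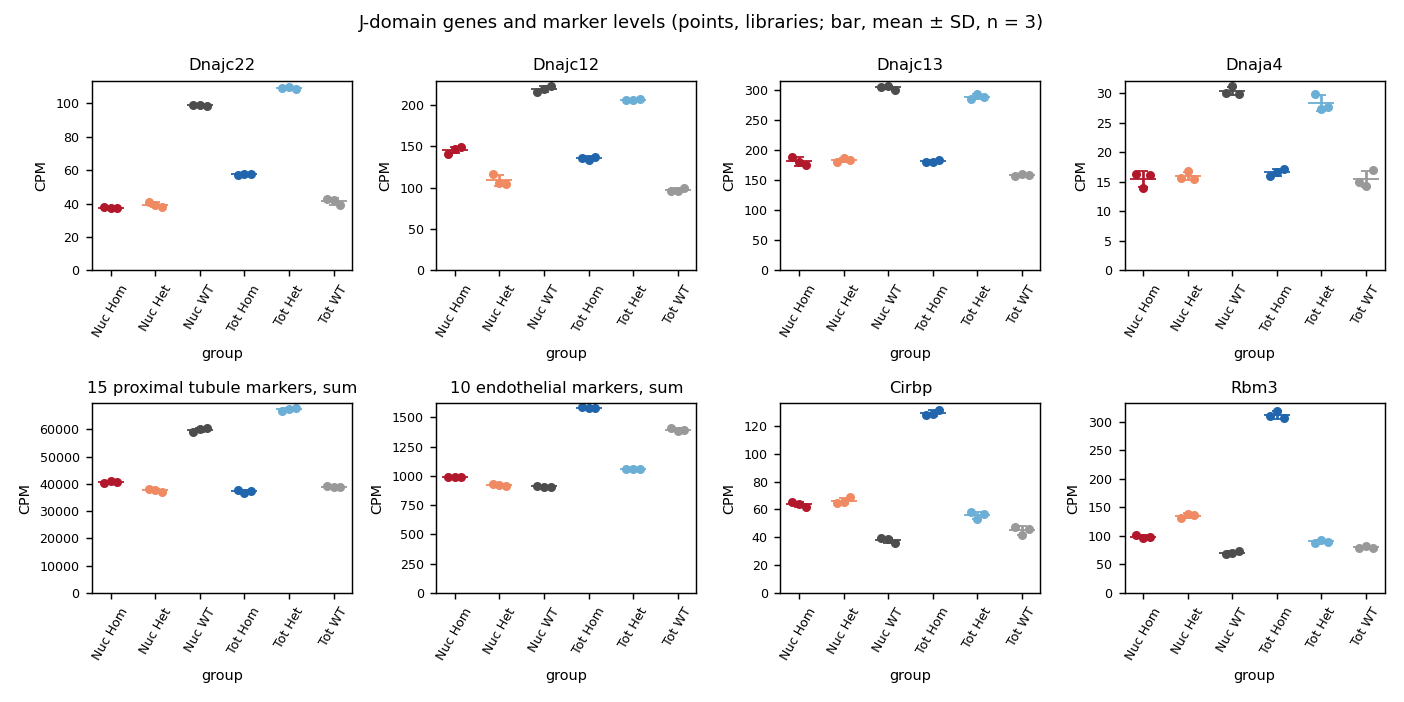
CPM in the 6 groups of the J-protein genes Dnajc22, Dnajc12, Dnajc13 and Dnaja4, the summed CPM of 15 proximal tubule and 10 endothelial markers, and CPM of Cirbp and Rbm3, with points for libraries and bars for the mean ± SD of 3. The J-protein genes and the proximal tubule sum are highest in Nuclear WT and Total Het, and Cirbp and Rbm3 are highest in Total Hom.

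Dnajc4, Dnajc7 and Dnajc8 rose in both fractions of Hom against WT. Dnajc7, which works with HSP70 and HSP90, had 136, 129 and 129 CPM in Total Hom, 92.5, 103 and 101 CPM in Total Het, and 104, 102 and 98.8 CPM in Total WT libraries. It rose by 0.38 ± 0.03 in total Hom (adjusted p = 5.16e-21) and by 0.13 ± 0.04 in nuclear Hom (adjusted p = 0.002). Dnajc8, a J-protein found with spliceosomes, rose by 0.33 ± 0.03 in total Hom (adjusted p = 3.62e-17) and by 0.10 ± 0.04 in nuclear Hom (adjusted p = 0.0355), and Dnajc4 by 0.18 ± 0.07 and 0.25 ± 0.07. The nuclear call of Dnajc8 was lost in 5 alternatives, among them DESeq2 and leaving out Nuclear Hom replicate 3 (0.06, adjusted p = 0.22), and that of Dnajc4 without Nuclear WT replicate 1 (0.18, adjusted p = 0.0523). Dnajc9, a histone chaperone, and Dnajc24, a J-protein needed to make diphthamide, rose in nuclear Hom by 0.16 ± 0.06 and 0.22 ± 0.09 (adjusted p = 0.0242 and 0.0388). Both calls were lost with DESeq2 (adjusted p = 0.087 and 0.114), Dnajc9 also without Nuclear Hom replicate 3 (0.07, adjusted p = 0.366) or Nuclear WT replicate 1 (0.11, adjusted p = 0.175), and Dnajc24 in 7 alternatives in all.

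Most mitochondrial genes of the rule were lower in nuclear and higher in total RNA of Het against WT. Hspd1 and Hspe1, the HSP60 and HSP10 of the mitochondrial chaperonin, lie head to head and share a promoter. The same stretch at chr1:55088029-55088106 is shown on the strand of each gene (minus for Hspd1, plus for Hspe1), with 2 overlapping runs of the 3-unit repeat in capitals.
Hspd1: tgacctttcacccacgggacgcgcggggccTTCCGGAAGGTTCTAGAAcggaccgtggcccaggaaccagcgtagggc
Hspe1: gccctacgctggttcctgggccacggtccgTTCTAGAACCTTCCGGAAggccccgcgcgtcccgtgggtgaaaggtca
Hspd1 had 512, 517 and 536 CPM in Nuclear Hom, 399, 387 and 396 CPM in Nuclear Het, and 754, 757 and 768 CPM in Nuclear WT libraries. In total RNA it had 312, 308 and 306 CPM in Hom, 779, 797 and 791 CPM in Het, and 464, 492 and 480 CPM in WT libraries. Het was the lowest nuclear group and the highest total group, and no groups overlapped. Hspd1 fell by 0.63 ± 0.02 in total Hom (adjusted p = 2.2e-62) and rose by 0.72 ± 0.02 in total Het (adjusted p = 1.35e-70) against WT. Its largest genotype difference within a fraction was in total Hom against Het, at -1.35 ± 0.02 (adjusted p = 2.68e-104). Hspe1 showed the same order, with 138, 151 and 157 CPM in Nuclear Hom, 122, 123 and 129 CPM in Nuclear Het, and 183, 188 and 192 CPM in Nuclear WT libraries. Its total RNA was 97.4, 103 and 104 CPM in Hom, 183, 177 and 180 CPM in Het, and 141, 148 and 150 CPM in WT libraries, and total Hom against Het was -0.82 ± 0.03 (adjusted p = 9e-56).

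Of 9 mitochondrial members all 9 fell in nuclear Het against WT and all 9 were higher in nuclear Hom against Het, with median log2 fold changes of -0.35 and 0.22. Of all genes, 31.7% fell in the former and 21.4% were higher in the latter. In total RNA 7 rose and 1 fell in Het against WT, and all 9 were lower in Hom against Het (medians 0.28 and -0.38). The shares of all genes there were 30.9% higher and 30.3% lower in Het against WT, and 34.1% lower in Hom against Het. With library totals the same comparisons gave 0 higher and 7 lower, 7 higher and 0 lower, 5 higher and 1 lower, and 0 higher and 6 lower. Hspa9, the mitochondrial HSP70, had 953, 955 and 973 CPM in Nuclear Hom, 855, 853 and 863 CPM in Nuclear Het, and 1048, 1073 and 1062 CPM in Nuclear WT libraries. In total RNA it rose by 0.31 ± 0.02 in Het (adjusted p = 2.21e-39) and fell by 0.10 ± 0.02 in Hom (adjusted p = 8.9e-09) against WT. Dnaja3, the mitochondrial DNAJA protein, fell by 0.43 ± 0.03 in nuclear Het (adjusted p = 2.53e-22) and rose by 0.28 ± 0.03 in total Het (adjusted p = 8.97e-15). Dnajc19 and Dnajc15, J-proteins of the inner-membrane import motor, fell in nuclear Het by 0.35 ± 0.04 and 0.16 ± 0.05, and in total Het Dnajc19 rose by 0.20 ± 0.03 and Dnajc15 fell by 0.19 ± 0.05.

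The chaperones of the endoplasmic reticulum (ER) fell in nuclear RNA, 7 of 8 in Hom and 6 of 8 in Het against WT (27.8% and 31.7% of all genes). With library totals 4 of 8 did so in each. Their best-known switch is the unfolded protein response, which acts through the ER stress element (CCAAT, then 9 bases of any kind, then CCACG), and the windows of Hspa5 (chr2:34771995-34772073, plus strand) and Dnajc3 (chr14:118937797-118937875, plus strand) are shown with it in capitals.
Hspa5: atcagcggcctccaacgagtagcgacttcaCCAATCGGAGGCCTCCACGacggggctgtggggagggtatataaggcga
Dnajc3: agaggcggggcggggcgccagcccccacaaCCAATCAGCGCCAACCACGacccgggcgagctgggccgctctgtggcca
Hspa5 (BiP, the HSP70 of the ER) had 450, 432 and 445 CPM in Nuclear Hom, 452, 440 and 464 CPM in Nuclear Het, and 779, 768 and 763 CPM in Nuclear WT libraries. Total RNA held 410, 408 and 412 CPM in Hom, 467, 472 and 452 CPM in Het, and 453, 462 and 465 CPM in WT libraries. The nuclear WT libraries stood far above both mutant groups, while in total RNA Het and WT overlapped. Hspa5 fell by 0.77 ± 0.02 in nuclear Het (adjusted p = 5.71e-48) and by 0.16 ± 0.02 in total Hom (adjusted p = 1.27e-11), and total Het against WT was 0.01 (adjusted p = 0.59). Hsp90b1 had 467, 473 and 481 CPM in Total Hom, 628, 642 and 640 CPM in Total Het, and 690, 703 and 696 CPM in Total WT libraries. It fell by 0.55 ± 0.02 in total Hom (adjusted p = 4.49e-59) but only by 0.14 ± 0.02 in nuclear Hom (adjusted p = 3.43e-07). Dnajc3 (P58IPK) fell by 0.40 ± 0.02 in total Hom (adjusted p = 1.65e-32) and by 0.26 ± 0.03 in nuclear Het (adjusted p = 2.04e-14). The J-proteins Dnajb9 and Dnajb11, partners of BiP, fell in nuclear Hom by 0.43 ± 0.04 each.

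Of 7 small heat shock proteins tested, 2 rose and none fell in nuclear Hom against WT (26.5% and 27.8% of all genes). In total Het against WT 1 rose and 6 fell (30.9% and 30.3% of all genes). Cryab had 425, 460 and 457 CPM in Nuclear Hom, 344, 344 and 332 CPM in Nuclear Het, and 448, 462 and 459 CPM in Nuclear WT libraries. In total RNA it had 273, 274 and 271 CPM in Hom, 335, 332 and 323 CPM in Het, and 492, 463 and 484 CPM in WT libraries. Nuclear Hom overlapped nuclear WT, whereas Total Hom was the lowest of the 6 groups. Cryab fell by 0.81 ± 0.02 in total Hom (adjusted p = 2.87e-70) and 0.42 ± 0.03 in nuclear Het (adjusted p = 1.44e-26), and nuclear Hom against WT was -0.03 (adjusted p = 0.37). Hspb6 (HSP20, best known from muscle) rose in nuclear Hom by 0.61 ± 0.11 (adjusted p = 1.78e-06) and in total Hom by 0.82 ± 0.10 (adjusted p = 2.97e-13), where it held 12.3, 13 and 12.3 CPM against 7.41, 6.61 and 7.36 CPM in Total WT. Hspb8, the partner of BAG3, rose by 0.45 ± 0.09 in total Hom and fell by 0.49 ± 0.11 in total Het against WT. Hspb1 (HSP27), in whose RefSeq window at chr5:135887772-135887859 (plus strand) GAANNTTC occurs at 2 places in capitals, fell in total RNA by 0.22 ± 0.06 in Hom (adjusted p = 0.000397) and 0.53 ± 0.06 in Het (adjusted p = 6.5e-14).
Hspb1: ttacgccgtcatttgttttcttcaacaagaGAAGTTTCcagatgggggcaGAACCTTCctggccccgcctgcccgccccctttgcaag
Nuclear Hspb1 was -0.05 in Hom and -0.02 in Het against WT, neither called.

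Of the heat shock factors, Hsf1 was lower in nuclear RNA of both mutant genotypes and Hsf2 in total RNA of Hom. Hsf1 had 28.2, 29.8 and 28.1 CPM in Nuclear Hom, 28.2, 29.0 and 27.6 CPM in Nuclear Het, and 33.4, 32.1 and 33.7 CPM in Nuclear WT libraries. It fell in nuclear RNA by 0.20 ± 0.06 in Hom (adjusted p = 0.00116) and 0.22 ± 0.06 in Het (adjusted p = 0.000296), and in total RNA no difference of Hsf1 passed the test. With library totals neither nuclear call held, at -0.08 in Hom (adjusted p = 0.206) and -0.05 in Het (adjusted p = 0.465). Hsf2 fell in total RNA by 0.59 ± 0.08 in Hom (adjusted p = 8.7e-12), with 13.4, 12.9 and 13.5 CPM in Total Hom against 19.8, 20.9 and 19.5 CPM in Total WT libraries. Hspg2, the proteoglycan gene, fell by 0.70 ± 0.03 in total Het (adjusted p = 2.14e-45) and by 0.18 ± 0.04 in nuclear Hom (adjusted p = 5.87e-05).

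**Figure D4:**
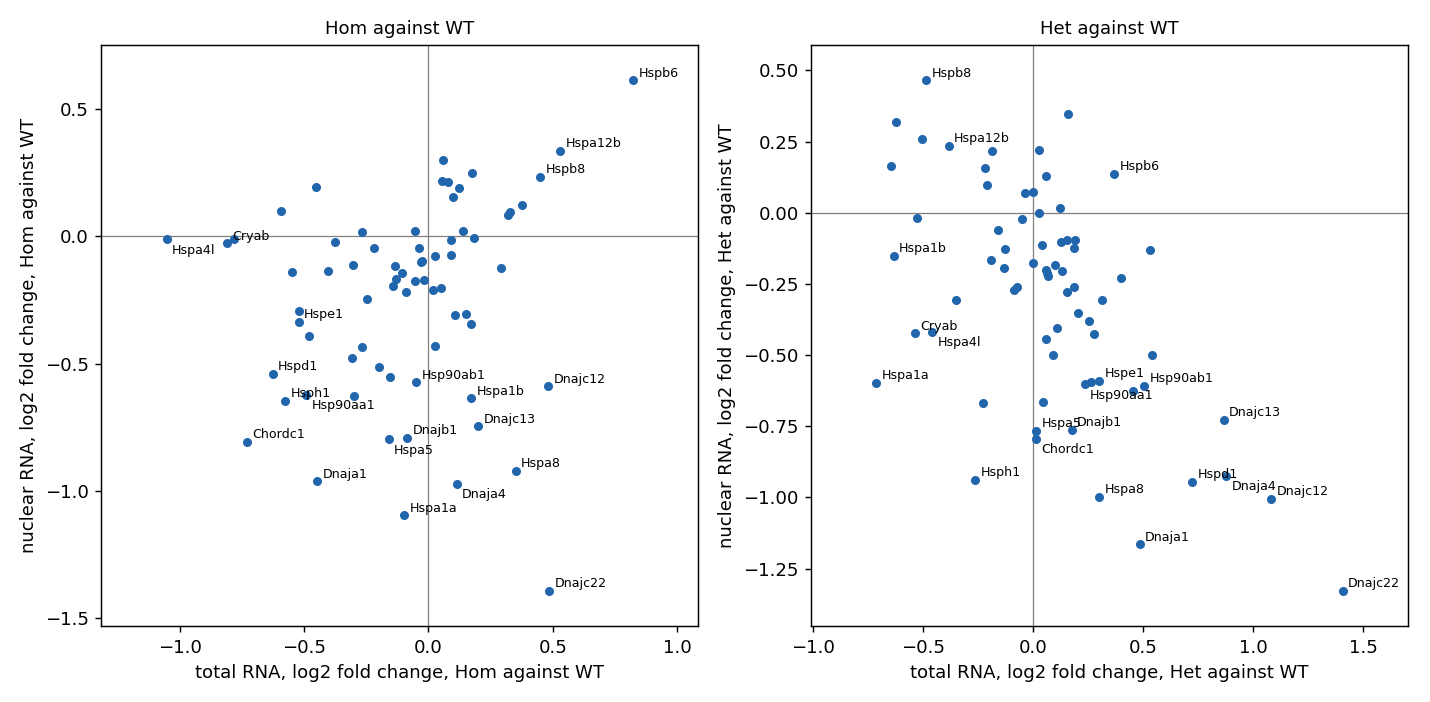
Each point is a gene of the rule with a mean of at least 5 CPM (Hspg2 left out), with its log2 fold change against WT in total RNA on the x axis and in nuclear RNA on the y axis, for Hom (left) and Het (right). Hom has many points in the lower left quadrant and Het many in the lower right, where Dnajc22 stands at 1.41 in total and -1.33 in nuclear RNA.

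Set side by side, the fractions showed different patterns in the genotypes. Against WT, the Xist split is reversed between the fractions, so opposite directions cannot be assigned to genotype or to the split. For Hom against WT, 23 of 75 genes (30.7%) were lower in both fractions, among 10.5% of all genes, and 9 (12%) were lower in nuclear and higher in total RNA, among 9.77%. Dnajc4, Dnajc7, Dnajc8, Hspa12b and Hspb6, 5 of 75 (6.67%, among 8.40%), were higher in both. No gene of the rule was higher in nuclear and lower in total RNA of Hom, a pattern of 8.80% of all genes. For Het against WT, 24 genes (32%, among 21.7% of all genes) were lower in nuclear and higher in total RNA, 12 (16%, among 3.43%) were lower in both and 6 (8%, among 17.8%) were higher in nuclear and lower in total RNA, while none was higher in both (2.90% of all genes). Hom against Het had 18 genes (24%, among 12.5%) higher in nuclear and lower in total RNA and 6 (8%, among 10.5%) with the reverse, including Hspa1a and Hspa1b. In that comparison 3 (4%, among 5.05%) were higher in both and 2 (2.67%, among 4.33%) lower in both.

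The interaction term, which tests whether the genotype difference itself differs between fractions (a change of the nuclear-to-total ratio), gave 16 genes higher and 32 lower of 77 in Hom against WT, beside 28.4% and 27.7% of all 15410 genes (56.1% together). With library totals this was 22 higher and 18 lower, so its direction for the group depends on the scaling. In Het against WT the ratio was higher for 15 and lower for 42 genes (37.8% and 32.9% of all genes, 70.7% together), or 34 and 26 with library totals (a shift of 0.36). In Hom against Het it was higher for 41 and lower for 19 (31.7% and 31.9%, 63.6% together), or 30 and 28 with library totals. Against WT, a difference tied to the Xist split would have opposite signs in the fractions and add up in this term. Genotype and split cannot be told apart in it. The ratio of Hspa8 fell by 1.27 ± 0.03 in Hom (adjusted p = 4.35e-86) and 1.30 ± 0.03 in Het (adjusted p = 1.19e-87) against WT. Hspd1 differed between the genotypes: its ratio was 0.09 ± 0.03 higher in Hom (adjusted p = 0.00642) and fell by 1.67 ± 0.03 in Het (adjusted p = 7.47e-97). The Hom call was lost without Nuclear Hom replicate 3 (0.07, adjusted p = 0.0684) or Total WT replicate 2 (0.07, adjusted p = 0.0532). The ratio of Cryab rose by 0.79 ± 0.03 in Hom (adjusted p = 4.17e-47) and by 0.11 ± 0.03 in Het (adjusted p = 0.00157), the Het call being lost with the deposited column (0.04, adjusted p = 0.586), and Hspa4l rose by 1.04 ± 0.06 in Hom (adjusted p = 1.56e-33) with 0.04 in Het (adjusted p = 0.563).

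**Figure D5:**
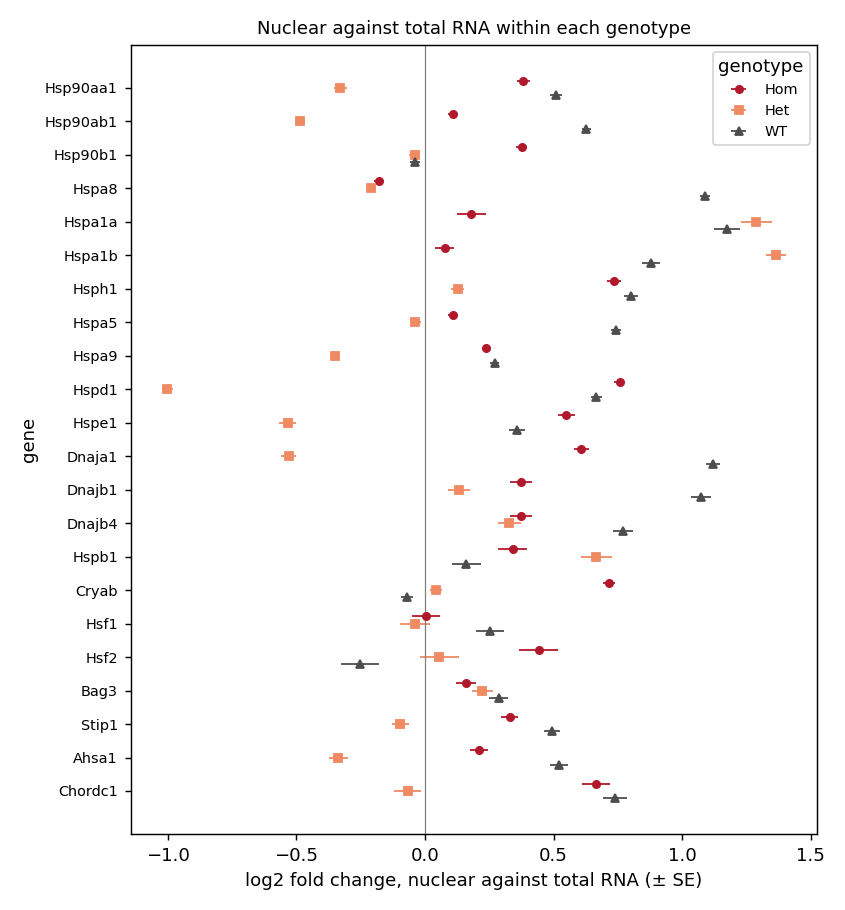
The log2 fold change of nuclear against total RNA (points, with SE from the edgeR fit) of 22 genes in Hom, Het and WT. Hspa8 stands at 1.09 in WT and below 0 in Hom and Het, and Hspd1 stands at -1.0 in Het and above 0 in Hom and WT.

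Within a genotype, nuclear RNA was compared with total RNA. In Hom 32 of 77 genes were higher in nuclear RNA and 17 lower, beside 30.5% and 29.8% of all genes (60.3% together), and the counts were 32 and 17 with library totals as well. Het gave 18 higher and 35 lower (33.4% and 30.2% of all genes, 63.6% together), turning to 35 higher and 20 lower with library totals. WT gave 43 higher and 15 lower (30.9% and 30.8%, 61.7% together), or 28 and 27 with library totals. Bag3, Dnajb1, Dnajb4, Hspa1a, Hspb1 and Hsph1, 6 of 77 genes (7.79%, among 1.62% of all genes), were higher in nuclear RNA in all 3 genotypes, and no gene of the rule was lower in all 3 (1.32% of all genes). Of these calls, Hspb1 in WT was 0.005 with library totals (adjusted p = 0.947) and was lost in 5 alternatives in all. With the deposited column of Total WT replicate 1 the calls of Hspa1a in Hom (adjusted p = 0.322) and Dnajb1 in Het (adjusted p = 0.349) were lost. Hspa1a stood at 0.18 ± 0.06 in Hom (adjusted p = 0.00373), 1.29 ± 0.06 in Het (adjusted p = 1.77e-44) and 1.17 ± 0.05 in WT (adjusted p = 3.31e-49). Hsph1 stood at 0.73 ± 0.03 in Hom (adjusted p = 6.3e-57), 0.13 ± 0.03 in Het (adjusted p = 1.55e-05) and 0.80 ± 0.03 in WT (adjusted p = 4.38e-63). The J-protein Dnajc22 was the most uneven, at -0.61 ± 0.04 in Hom, -1.47 ± 0.04 in Het and 1.26 ± 0.04 in WT.

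The promoter letters were set beside the values. RefSeq windows were found for 66 of the 82 genes (83 windows), and the 250 bases before each start were searched on both strands; Hspa8, Hsp90aa1, Hsp90ab1, Cryab and Hsf1 were not among them. The 3-unit repeat (GAANNTTC followed by NNGAA, or TTCNNGAA followed by NNTTC) occurred in 4 member windows (4.82%) and in 0.466% of all 32851 windows, and those 4 belong to Hspd1, Hspe1 and Dnajb6. The 2-unit forms, which overlap it, occurred in 14.5% (GAANNTTC) and 9.64% (TTCNNGAA) of member windows and in 6.69% and 7.17% of all windows. The ER stress element occurred in 3.61% of member windows and 0.113% of all, in Hspa5, Hsp90b1 and Dnajc3. Dnajb6, a J-protein that keeps polyglutamine proteins soluble, has its match at chr5:29735822-29735894 (plus strand) and Dnajb4 at chr3:152193846-152193889 (minus strand), both in capitals.
Dnajb6: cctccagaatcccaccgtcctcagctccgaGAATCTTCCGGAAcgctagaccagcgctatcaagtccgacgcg
Dnajb4: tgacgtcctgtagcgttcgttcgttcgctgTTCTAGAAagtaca
Of the 14 genes with a GAA repeat of any of these forms 13 were tested. Hspd1 and Hspe1 among them share a promoter, and Hspa1a and Hspa1b hold the same stretch. In nuclear Hom against WT 1 of the 13 was higher and 9 lower (median -0.54), while of 48 tested genes without a match 8 were higher and 20 lower (median -0.09). Nuclear Het against WT gave 2 higher and 9 lower (median -0.59) with a match, and 8 and 25 (median -0.15) without. In total RNA the genes with a match split 3 higher and 7 lower in Hom and 6 and 6 in Het against WT. The 47 tested genes without a match split 11 higher and 18 lower in Hom, and 12 and 18 in Het. Hom against Het does not cross the Xist split within a fraction. In nuclear RNA it gave 6 higher and 3 lower with a match (median 0.05), and 12 and 3 without (median 0.00). In total RNA it gave 5 and 6 with a match (median 0.08), and 14 and 23 without (median -0.11). The nuclear contrast seen against WT was thus not present in Hom against Het. A match is a description of the letters and not of binding.

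Other chaperones outside the rule were counted for comparison. The 9 genes of the cytosolic TRiC/CCT chaperonin, the folding chamber for actin and tubulin, moved as the mitochondrial chaperonin did in Het: all 9 fell in nuclear RNA and all 9 rose in total RNA against WT, with library totals leaving 1 higher and 5 lower, and 5 higher and 2 lower. Cct6a stood at -0.37 in nuclear Het (adjusted p = 4.81e-19) and 0.37 in total Het (adjusted p = 5.42e-25). Of 21 HSP90 cochaperones outside the rule, 2 rose and 10 fell in nuclear Hom against WT, and 3 rose and 9 fell in total Hom. Fkbp5, an HSP90 cochaperone that glucocorticoids are known to induce, differed most between the fractions of Hom among those named here: it fell by 0.97 in nuclear Hom (adjusted p = 1.39e-36) and rose by 2.06 in total Hom (adjusted p = 2.09e-87) and 1.60 in total Het (adjusted p = 6.18e-73) against WT. Fkbp4, a related cochaperone, fell by 0.42 in nuclear Het and by 0.53 in total Hom (adjusted p = 1.91e-26 and 1.12e-43). Of 17 HSP70 exchange factors and regulators, 3 rose and 10 fell in nuclear Hom, and 11 rose and 2 fell in total Het against WT. Hyou1, the ER exchange factor of BiP, fell by 0.66 in nuclear Hom (adjusted p = 1.31e-32), and Clpb, a mitochondrial disaggregase, fell by 0.61 in total Hom (adjusted p = 1.71e-36). Among 9 other genes linked to HSF1, Serpinh1, the collagen chaperone HSP47, fell by 0.57 in nuclear Hom and 0.81 in total Hom (adjusted p = 5.96e-27 and 1.87e-49). Of the 6 prefoldin genes 1 rose and 2 fell in nuclear Hom, and 1 rose and 1 fell in total Hom against WT.

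Cirbp and Rbm3, RNA-binding proteins known to be induced by mild cooling, rose with TMM scaling in both mutant genotypes and both fractions against WT. The rises were smallest in total Het, with a median log2 fold change of 0.25 for the pair. Library totals move the median of all genes by -0.18 in that comparison. The Rbm3 means of Total Het and Total WT differ by about that shift, so its rise there depends on the scaling. Cirbp averaged 63.7 CPM in Nuclear Hom, 66.0 CPM in Nuclear Het and 37.8 CPM in Nuclear WT libraries, and 129 CPM in Total Hom, 55.8 CPM in Total Het and 44.8 CPM in Total WT libraries. Rbm3 averaged 312 CPM in Total Hom, 90.2 CPM in Total Het and 80.0 CPM in Total WT libraries. Cirbp rose by 0.75 in nuclear Hom, 0.80 in nuclear Het and 1.53 in total Hom (adjusted p = 2.96e-27, 3.23e-29 and 9.44e-80), and Rbm3 by 0.48, 0.94 and 1.97 (adjusted p = 7.21e-20, 2.18e-39 and 6.85e-105). Their relation to the heat shock genes was not tested.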

How the data were processed

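RNA was extracted with TRIzol and made into stranded mRNA libraries with a KAPA kit, per the labels' protocols. The authors deposited counts per gene. The submitters' processing notes name CASAVA, STAR 2.5.2b, featureCounts, DESeq2 and the mm9 build, and the annotation and strand setting of the counting are not given in the sources used here. No molecular identifiers are recorded, and the SEs and p-values cover counting error and the spread between libraries.

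The deposited Total WT replicate 1 column summed to 200140709 counts, 10.2 times the mean of the other 17. The 9 nuclear columns together summed to 181106189 and exceeded it at 0 genes, and their sum was subtracted, leaving 19034520. This step was chosen with the data seen. No column of another series was present.

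Counts were filtered and scaled by TMM and tested with edgeR 4.0.16 in R 4.3.3 (limma 3.58.1), using the quasi-likelihood test with Benjamini-Hochberg adjustment over all genes tested and a threshold of 0.05. Nuclear and total libraries were fitted separately for genotype, and all 18 together for the ratio of fractions. Replicate variation (edgeR's biological coefficient) was 3.05% in nuclear and 3.90% in total libraries. In simulated data for nuclear Hom against WT (15112 genes, 14912 of them unchanged), 52% of genes changed 1.2-fold and 86% of those changed 2-fold were recovered, with 4 false calls. For the ratio of fractions in Hom against WT (15410 genes, 15210 unchanged) recovery was 20% and 76%, with 8 false calls. In the real data 54.3% and 56.1% of genes were called in these comparisons. The rates therefore describe the simulated setting, with few changed genes and no shift of composition, and not the real comparisons.

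The members and gene lists were chosen with earlier results of these data known. Named genes were 21 core chaperones, and in each comparison the 10 largest called rises and falls at 5 CPM or more. Promoter windows came from RefSeq on GRCm38.p6, while the counts used mm9. Alternatives were DESeq2 1.42.0, library totals, no filter, the deposited column, a replicate block and leaving out libraries.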

Additional observations from a re-analysis of the deposited data

Results flagged for a closer look

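The genes below were marked because the genotype difference was called in opposite directions in nuclear and total RNA, and the interaction test of the difference itself gave a 2-fold or larger gap. Values are log2 differences of the nuclear minus the total genotype effect. Xist was high in both nuclear mutant groups and low in Nuclear WT, and the reverse held in total RNA. A difference tied to that split would therefore be marked by this rule in the comparisons with WT. Genotype and split cannot be told apart in those gaps. For Hom against WT the gap was -1.07 for Dnajc12, -1.87 for Dnajc22 and -1.27 for Hspa8.

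For Het against WT, the cytosolic J-proteins Dnaja1 and Dnaja4 stood at -1.65 and -1.80, and Dnajb12 at -1.04. Dnajc12 stood at -2.09, Dnajc13 at -1.59, Dnajc22 at -2.73 and Dnajc6 at -1.08. Hsp90ab1 stood at -1.11, Hspa8 at -1.30 and Hspd1 at -1.67.

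For Hom against Het, the difference within a fraction does not cross the Xist split, but the gap between the fractions does. The gap was positive for Dnaja1 (1.14), Dnajc12 (1.02), Hspa4l (1.0), Hspd1 (1.76) and Hspe1 (1.08). It was negative for the inducible HSP70 genes, at -1.11 for Hspa1a and -1.29 for Hspa1b, whose sequences are nearly identical, so that each value is uncertain.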

How the results depend on the processing

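Of 8452 alternative values of the named genes, 8270 kept direction and call, 170 were no longer called and 12 reversed. The cause was not tested. With library totals the counts were 21 higher in nuclear Hom against WT, 24 higher in nuclear Het against WT, 18 lower in nuclear Hom against Het and 15 higher in total Het against WT. The ratio gave 18 lower in Hom against WT, and 34 higher and 26 lower in Het against WT. Nuclear against total gave 28 higher and 27 lower in WT, and 35 higher and 20 lower in Het. DESeq2 gave 5 higher in nuclear Hom and 3 higher in nuclear Het against WT. The deposited Total WT replicate 1 gave 11 higher in total Hom against WT and 8 lower for nuclear against total WT. Leaving out Total Hom replicate 2 and Total WT replicate 1 together, chosen after seeing the data, gave 13 higher in total Hom against WT.

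Values that reversed with library totals were Hsp90b1 (0.051) and Hspa1b (0.027) in nuclear Het against WT, and Dnajb1 (-0.0043) and Stip1 (-0.0905) in total Het against WT. For the ratio they were Bag3 (0.0181) and Hsp90aa1 (0.0177) in Hom against WT, Hsf1 (0.0661) in Het against WT and Hspa5 (-0.0674) in Hom against Het, and for nuclear against total Het Stip1 (0.10). With the deposited column Hspa1b was -0.073 in total Hom and Dnajb1 -0.0567 in total Het against WT, and Cryab 0.0075 for nuclear against total WT.

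Leaving out 1 library at a time, nuclear Hom against WT gave 47 to 51 calls (6 to 10 higher, 40 to 42 lower). Nuclear Het against WT gave 49 to 58 (5 to 12 higher, 44 to 46 lower), with 5 higher without Nuclear WT replicate 1. Nuclear Hom against Het gave 28 to 33 (20 to 24, 8 to 10). Total Hom against WT gave 47 to 52 (16 to 20, 30 to 32), total Het against WT 52 to 55 (27 to 30, 24 to 26) and total Hom against Het 60 to 62 (19 to 23, 39 to 41). Same-numbered libraries did not deviate together (r from -0.0837 to 0.0853), so the numbers were not taken to pair them, and a replicate block moved no total by more than 1 call, with 51 calls in nuclear Hom against WT beside 50 without it, and no named call was lost.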

Other observations

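Clock genes differed widely between the groups, in a list of 18. In total Hom against WT 13 were called higher and 5 lower (30.6% and 31.0% of all genes), with a median log2 fold change of 1.11. In nuclear Hom against WT 7 were higher and 9 lower (26.5% and 27.8% of all genes). Dbp, a clock output transcription factor, stood at 3.55 in total Hom (adjusted p = 2.22e-71) and 2.24 in total Het, and at -1.62 in nuclear Hom and -1.88 in nuclear Het, all against WT. The labels give no time of day for the samples.

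Immediate early genes, which respond to handling and stimulation, gave 11 higher and 3 lower of 19 in total Hom against WT (30.6% and 31.0% of all genes). They gave 0 higher and 14 lower in total Het against WT (30.9% and 30.3%), and 16 higher and 0 lower in total Hom against Het (32.9% and 34.1%). Of 20 in nuclear RNA, 10 were higher and 6 lower in Hom against WT (26.5% and 27.8% of all genes). In nuclear Het against WT 11 were higher and 4 lower (32.8% and 31.7%). In nuclear Hom against Het 1 was higher and 12 lower (21.4% and 21.8%), the opposite direction to total RNA. Their relation to the heat shock genes was not tested.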
